A study of Drosophila melanogaster with 6 samples.

Results

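Genes of EGF receptor signalling were examined in whole Drosophila melanogaster embryos mutant for ribbon (rib), which encodes a BTB-domain nuclear protein required for tube formation in the trachea and salivary gland. The set named 10 genes (Egfr, spi, vn, aos, rho, ru, S, pnt, kek1 and sty), and a probe set was taken as a member when the platform annotation gave it exactly 1 of these symbols. This found 7 probe sets of 6 genes among 18769 probe sets tested, with 2 probe sets for sty and 1 each for Egfr, spi, aos, S and kek1. The genes vn, rho, ru and pnt have no such probe set and were not analysed here. RNA from 3 wild-type (Oregon R) and 3 rib1/ribP7 embryo collections was hybridized to Affymetrix Drosophila Genome 2.0 arrays, 1 collection to an array. Both groups were collected for 8 h at room temperature, aged for 11 h and picked with an embryo sorter, and the labels place them at stages 11 to 16. The mutants carried the rib1 allele over the ribP7 allele, and the labels name no transgene or other treatment in either group. What each allele does to the rib transcript is not given in the sources used here.

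In the fly a single EGF receptor is used over and over in the embryo, where it patterns the ventral ectoderm, recruits cells to sense organs and contributes to tracheal placode formation. The ligand Spitz (spi) is made as an inactive membrane precursor, which Star (S) carries out of the endoplasmic reticulum so that Rhomboid-family proteases (rho, ru) can release it, while Vein (vn) is secreted directly. The receptor signals through Ras and MAP kinase to the ETS factor Pointed (pnt), which switches on target genes that include the inhibitors Argos (aos), Kekkon 1 (kek1) and Sprouty (sty). Argos binds Spitz outside the cell, Kekkon 1 binds the receptor in the membrane, and Sprouty acts on the Ras pathway inside the cell and also restrains FGF receptor signalling in the trachea.

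Of the 7 member probe sets, 1 (14.3%) passed the test and it was higher in the mutants, where 8.87% of all probe sets passed limma's adjusted p under 0.05 in either direction, 5.54% as higher and 3.32% as lower. The transcript was spi, the activating ligand. The 2 members whose groups did not overlap, spi and kek1, were both higher in the mutants, 28.6% of the members. Of all probe sets 35.3% had groups that did not overlap in either direction, and 14.2% did so as higher. Counts of 1 and 2 among 7 probe sets are too small to be a result about the pathway as a group. The median difference over the 7 member probe sets, mutant minus wild type, was 0.34 log2 units, beside −0.07 over all probe sets. This median is the value of a sty probe set (1635819_at), a gene counted by 2 probe sets. Without wild-type replicate 3 that probe set differed by −0.00163. With 1 probe set a gene the member median was 0.19, beside −0.06 over all genes.

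Array quality bears on these values. Array medians lay between 5.51 and 5.56 log2 units, wild-type arrays were less alike than mutant arrays (the SD was larger in wild type for 80.8% of all probe sets), and hybridization controls averaged 10.4 to 10.8 in wild type and 10.1 to 10.3 in the mutants. The rib probe set itself read 13.21, 13.28 and 12.69 in wild type and 13.87, 13.93 and 13.78 in the mutants (limma adjusted p = 0.0390). Arrays with the same replicate number deviated together from their group means, so differences between same-numbered arrays are also given. Whole embryos were measured, so more cells of a type and more RNA per cell cannot be told apart.

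**Figure D1:**
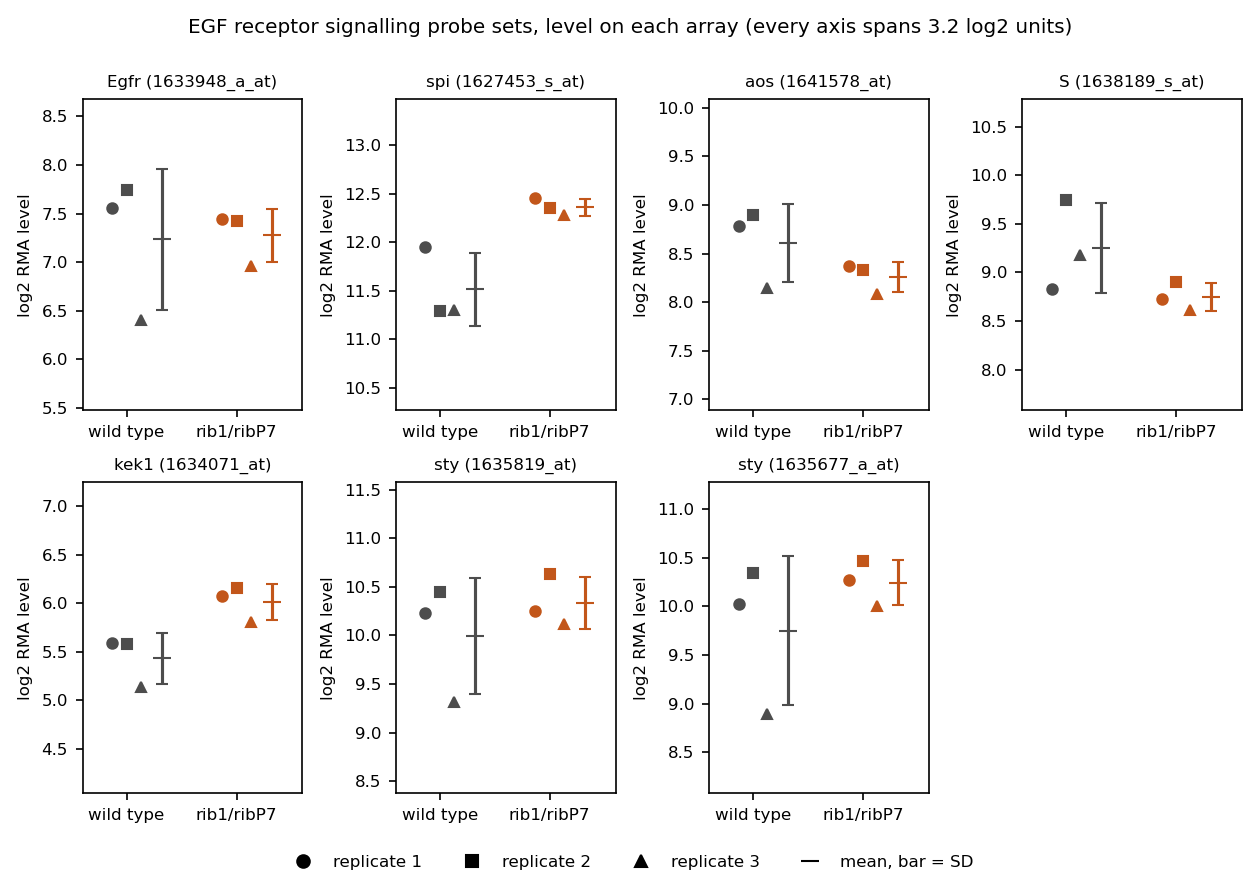
Log2 RMA level (vertical axis) of each member probe set on each of the 6 arrays, with circles, squares and triangles for replicates 1, 2 and 3 and the group mean with its SD beside them (n = 3 a group). The groups part for spi and kek1, and the triangle of wild-type replicate 3 lies lowest of the wild-type arrays for Egfr, aos, kek1 and both sty probe sets.

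The ligand gene spi (CG10334, probe set 1627453_s_at) rose in the mutants. It read 11.95, 11.29 and 11.30 log2 units in wild-type replicates 1, 2 and 3 and 12.45, 12.35 and 12.28 in mutant replicates 1, 2 and 3. Every mutant array lay above every wild-type array, and the highest wild-type array was replicate 1. The means were 11.51 ± 0.38 and 12.36 ± 0.09 (SD, n = 3 each), a difference of 0.85 (SE 0.19), or 1.80-fold with a 95% interval of 1.30 to 2.48, at limma adjusted p = 0.0491. Same-numbered pairs differed by 0.50, 1.06 and 0.97.

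The spi call sat at the edge of the threshold. In the 6 fits that each dropped an array the difference ranged from 0.73 to 1.06. The limma adjusted p was 0.00163 without wild-type replicate 1 and from 0.102 to 0.173 in the remaining 5 fits. With an unadjusted limma p of 0.00426, spi was also the 1 member to meet the submitters' rule of 1.5-fold at p under 0.05, which 8.01% of all probe sets met as higher. In the wild-type arrays the spi signal lay at percentile 96.9 of all probe sets. The suffix _s_at marks a probe set that may match transcripts of more than 1 gene, although the annotation lists spi alone. The same suffix marks the S probe set and those of other genes named below, among them kek5, gro, Jra, 14-3-3zeta and aop. In the RefSeq gene table (assembly Release 6 plus ISO1 MT) the aos gene overlaps CG33158 and Egfr overlaps 5 other genes, and whether their transcripts reach these probe sets was not tested.

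The other 2 measured ligand genes did not pass the test. Krn (Keren), a Spitz-like ligand, read 8.08 to 8.52 in wild type and 8.18 to 8.32 in the mutants, a difference of −0.08 (limma adjusted p = 0.702). For grk (Gurken), the ligand that patterns the egg in the ovary, the wild-type arrays read 6.85, 7.90 and 8.17 and the mutant arrays 7.61, 7.80 and 7.98, a difference of 0.16 (limma adjusted p = 0.787). Both groups overlapped for each gene.

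Star (S, CG4385, probe set 1638189_s_at), the carrier of the Spitz precursor, did not pass the test. It read 8.83, 9.75 and 9.18 in wild type and 8.73, 8.90 and 8.61 in the mutants, so wild-type replicate 1 lay among the mutant values. The means were 9.25 ± 0.46 and 8.75 ± 0.14 (SD, n = 3 each), a difference of −0.51 (SE 0.24, 95% interval −1.08 to 0.07, limma adjusted p = 0.239). All 3 same-numbered pairs lay below 0, at −0.10, −0.85 and −0.56. The difference was −0.26 without wild-type replicate 2, the highest array, and −0.72 without wild-type replicate 1 (limma adjusted p = 0.374 and 0.0511).

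The receptor gene Egfr (CG10079, probe set 1633948_a_at) had nearly the same mean in both groups. It read 7.55, 7.75 and 6.41 in wild type and 7.44, 7.42 and 6.96 in the mutants, with the mutant values inside the wild-type range. The means were 7.24 ± 0.72 and 7.28 ± 0.27 (SD, n = 3 each), a difference of 0.04 (SE 0.37, limma adjusted p = 0.949). The 95% interval ran from −0.85 to 0.93, which spans mutant levels of 0.555 to 1.90 times the wild-type level. Wild-type replicate 3 was the lowest of the 6 arrays, and without it the difference was −0.37 (limma adjusted p = 0.292). The sign also turned without mutant replicate 1 or 2, at −0.04 and −0.03.

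**Figure D2:**
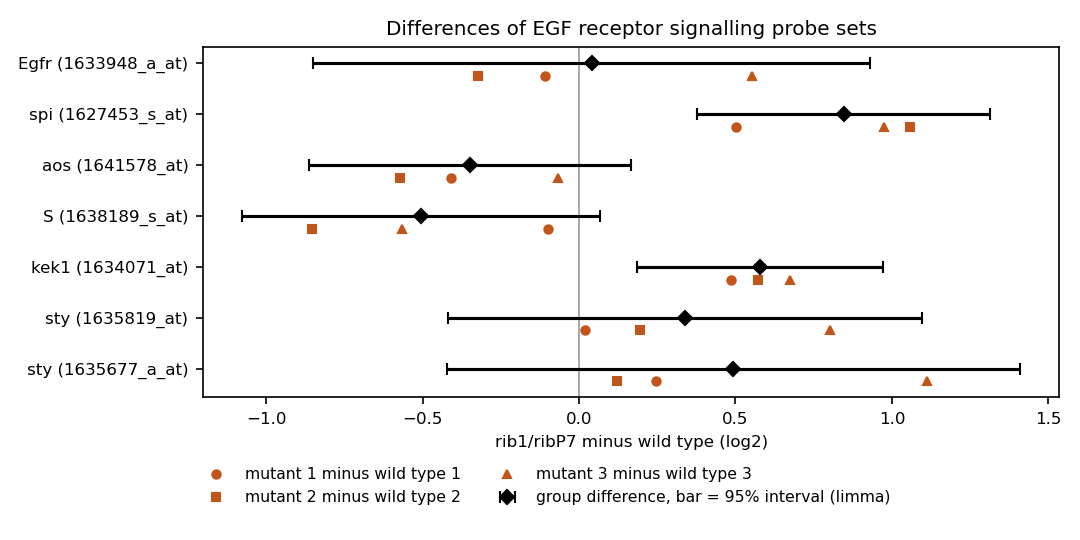
Difference between mutant and wild type (log2, horizontal axis) for each member probe set, with diamonds for the group difference, bars for its 95% interval from limma, and coloured symbols for the 3 same-numbered pairs. The intervals of spi (0.38 to 1.31) and kek1 (0.18 to 0.97) lie above 0 and the other 5 span it.

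Among the feedback inhibitors, kek1 (CG12283, probe set 1634071_at) had groups that did not overlap. It read 5.59, 5.59 and 5.13 in wild type and 6.07, 6.16 and 5.81 in the mutants. The means were 5.44 ± 0.26 and 6.01 ± 0.18 (SD, n = 3 each), a difference of 0.58 (SE 0.16), or 1.49-fold. The limma adjusted p was 0.0844. Taking the replicate number as a block gave 0.0202, where 14.6% of all probe sets passed. Same-numbered pairs differed by 0.48, 0.57 and 0.67, the narrowest range of the 7 member probe sets. The wild-type signal was close to the array medians (percentile 47.4), a range in which background contributes to the signal and folds are understated.

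The secreted inhibitor aos (CG4531, probe set 1641578_at) had a mean on the other side of 0. It read 8.78, 8.90 and 8.15 in wild type and 8.37, 8.33 and 8.08 in the mutants. Wild-type replicate 3 lay among the mutant values and the other wild-type arrays above them. The means were 8.61 ± 0.40 and 8.26 ± 0.16 (SD, n = 3 each), a difference of −0.35 (SE 0.21, 95% interval −0.86 to 0.17, limma adjusted p = 0.343). Without wild-type replicate 3 the difference was −0.58 (SE 0.11) and passed limma's test (adjusted p = 0.0439), and with arrays scaled on hybridization controls it was 0.03, where the median of all probe sets was 0.31.

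The 2 probe sets of sty (CG1921) gave like values. Probe set 1635819_at read 10.23, 10.44 and 9.32 in wild type and 10.25, 10.64 and 10.12 in the mutants, a difference of 0.34 (SE 0.31, 95% interval −0.42 to 1.10, limma adjusted p = 0.516). Probe set 1635677_a_at read 10.02, 10.35 and 8.89 in wild type and 10.27, 10.47 and 10.00 in the mutants, a difference of 0.49 (SE 0.38, 95% interval −0.42 to 1.41, limma adjusted p = 0.440). In both, wild-type replicate 3 was the lowest of the 6 arrays, while the other wild-type arrays overlapped the mutant arrays. Without that array the differences were −0.00163 and 0.06.

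The means of these 3 target genes lay on both sides of 0, other than with arrays scaled on hybridization controls, where all lay above it. Of their 4 probe sets none passed limma's adjusted test and 1, kek1, was under an unadjusted p of 0.05, beside 25.5% of all probe sets.

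Spread within a group had a pattern among the members that was not theirs alone. Mutant replicate 3 was the lowest mutant array for all 7 member probe sets, beside 32.5% of all probe sets. Wild-type replicate 3 was the lowest wild-type array for 5 of them (Egfr, aos, kek1 and both sty probe sets), beside 24.5% of all probe sets. Both held for the same 5 probe sets, 71.4% of the members, beside 13.7% of all probe sets. In deviations from the group mean, the median member stood at 0.24, 0.44 and −0.46 in wild-type replicates 1, 2 and 3 and at 0.06, 0.15 and −0.20 in the mutant replicates, against −0.05, −0.01 and 0.07 and values within 0.003 of 0 for the median of all probe sets.

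**Figure D3:**
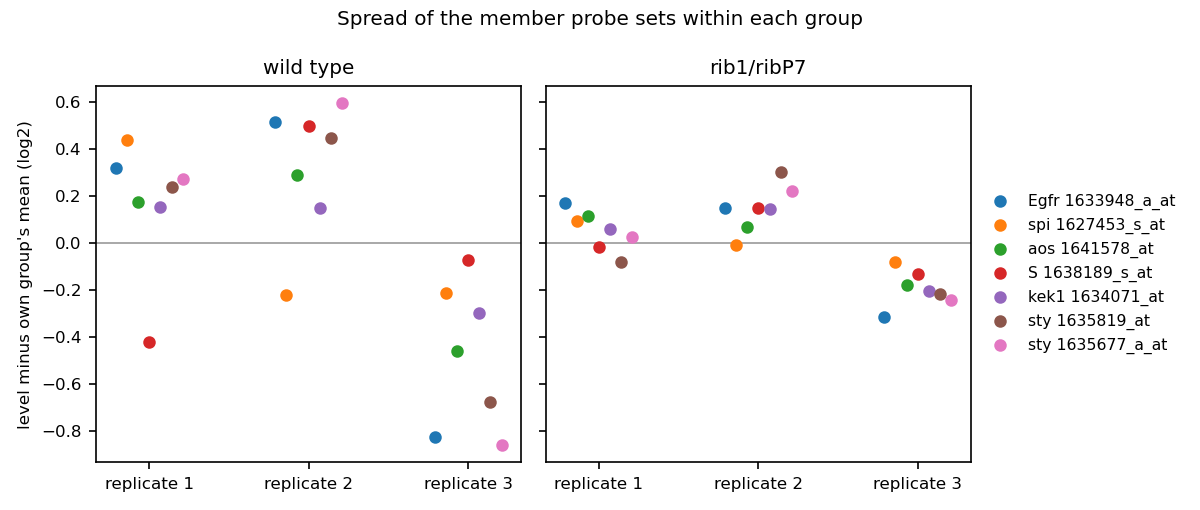
Level of each member probe set minus the mean of its own group (log2, vertical axis) by replicate (horizontal axis), with wild type on the left, mutants on the right and 1 colour a probe set. All 7 points lie below 0 for replicate 3 in both groups, from −0.07 to −0.86 in wild type and from −0.08 to −0.32 in the mutants.

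Several lists of tissue markers were also lowest in wild-type replicate 3. Of 17 tracheal genes listed, 13 were measured. Their median level was 9.79, 8.77 and 7.40 log2 units in wild-type replicates 1, 2 and 3 and 8.78 to 9.10 in the mutants. Of them 2 rose (pio and rib) and none fell, where 11.3% of 11982 genes passed limma's adjusted test by their brightest probe set. The gene rib is the mutated gene itself, so its rise cannot be read as tracheal tissue. Over 8 of 13 ventral midline genes the median level was 9.41, 9.79 and 8.36 in wild type and 9.27 to 9.68 in the mutants, with 1 fall, in link. The midline gene sli read 5.07 to 5.22 in wild type and 5.03 to 5.09 in the mutants, below the array medians. Over 15 of 22 muscle genes the median level was 9.12, 7.24 and 6.12 in wild type and 8.42 to 8.53 in the mutants. Of the muscle genes 2 rose and none fell (13.3% called), while all 15 had differences above 0. Their median difference was 1.02, beside −0.06 over all genes. Wild-type replicate 3 was thus the lowest wild-type array for these 3 lists as for most members. By median level it was also the lowest for the oenocyte and chordotonal list and the late cuticle list, but not for the neuron or early lists. In deviations from the group mean it was the lowest for the neuron list as well (−0.21), but not for the early list (0.01). In the mutants the muscle medians of replicates 1 and 3 were nearly equal (8.417 and 8.420). In deviations from the group mean mutant replicate 3 was the lowest for muscle (−0.05). The match was partial, since in wild-type replicate 2 the muscle list deviated by −0.28, where the median member stood at 0.44. The part of tissue make-up in the members' values was not tested.

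Lists of genes used early and late in embryonic life were also examined. Over 17 of 19 neuron genes the median level was 5.21 to 5.46 in wild type and 5.85 to 6.26 in the mutants, with 7 rises and no fall (41.2% called, beside 11.3% of all genes). Over 16 of 23 early and maternal genes it was 8.08 to 9.10 in wild type and 7.08 to 7.30 in the mutants, with 5 falls and no rise (31.2%). Over 19 of 24 late cuticle genes it was 5.45 to 6.48 in wild type and 5.45 to 5.67 in the mutants. Of these, 3 rose and none fell (15.8%), while 5 of the 19 had differences above 0, with a median of −0.19 and a range of −3.87 to 2.81, and the blocked fit called 3 higher and 1 lower. Of 15 genes listed for oenocytes and chordotonal organs, 13 were measured and none passed limma's test. Their median level was 5.38 to 6.63 in wild type and 6.31 to 6.46 in the mutants. An unadjusted p under 0.05 was found for 5 of the 13, beside 25.5% of all probe sets. The smallest p belonged to dati (1.34, limma adjusted p = 0.0582) and Cyp4g15 (0.27, limma adjusted p = 0.101), the latter among the dimmest 40% of probe sets. In whole embryos, whether the dati and Cyp4g15 signals came from those cell types or from others was not tested. Differences below 0 were also seen, in ato (−1.26, limma adjusted p = 0.105) and Cyp4g1 (−1.13, limma adjusted p = 0.264), named after their values were seen. Their part in the spi and kek1 differences was not tested.

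Downstream of the receptor, the Ras and MAP kinase cassette held 16 measured genes of 25 listed, taking the brightest probe set of each gene. Of these, 1 rose, none fell and 15 did not pass (6.25% called, beside 11.3% of all genes). The gene that rose was Dsor1, which encodes the MAP kinase kinase. It read 7.64, 7.35 and 7.46 in wild type and 8.63, 8.53 and 8.53 in the mutants, with a gap between the groups wider than the range within either. The difference was 1.08 (SE 0.10), 2.11-fold, at limma adjusted p = 0.00223, and it passed in all 14 alternative fits.

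The adaptor and docking genes of the cassette stayed within their spread. Sos, the Ras exchange factor, differed by 0.05 (limma adjusted p = 0.911) and drk, the adaptor that brings it to the receptor, by 0.33 (limma adjusted p = 0.304). The kinase scaffold genes cnk and ksr differed by 0.09 and −0.18, neither past the test. The widest difference in the list belonged to 14-3-3zeta, a binding partner of Raf, and was chosen after its values were seen. It read 9.27, 8.39 and 7.05 in wild type and 10.47, 10.64 and 10.28 in the mutants, a difference of 2.23 (SE 0.53) with limma adjusted p = 0.0561 (0.0292 in the blocked fit). The list median was 0.10, and 3 genes were called higher with the replicate block, where 18.4% of genes passed.

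The list of other negative regulators, together with the kek paralogues, held 18 measured genes of 24 listed. Of these, 5 rose, 1 fell and 12 did not pass, a share of 33.3% called beside 11.3% of all genes. The median difference was 0.24, beside −0.06 over all genes by their brightest probe set. The called genes include kek2, kek4, kek5 and spict, for which inhibition of the receptor is not established in the sources used here. The list was also chosen with earlier results of these data known, so its share is no result about negative regulators as a group. Cbl, a ubiquitin ligase that marks the activated receptor for degradation, read 8.47, 8.99 and 9.03 in wild type and 10.09, 10.57 and 10.51 in the mutants. The groups lay more than 1 log2 unit apart. Its difference was 1.56 (SE 0.20), 2.94-fold, at limma adjusted p = 0.00789, and its other probe set gave 0.76 (limma adjusted p = 0.0661, or 0.0106 in the blocked fit).

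The corepressor gene gro (Groucho), whose product the MAP kinase is known to weaken, rose by 0.93 (SE 0.19, limma adjusted p = 0.0368). It read 9.63, 10.01 and 9.33 in wild type and 10.53, 10.79 and 10.43 in the mutants. The 1 fall was in spict, an endosomal protein gene known for limiting BMP signalling at synapses, by 0.81 on the log2 scale (SE 0.11, limma adjusted p = 0.00947). The limma adjusted p of gro rose to as much as 0.144 when 1 array was left out, in 4 of the 6 such fits. The spict call was lost in 3 of 14 alternative fits, without mutant replicate 3 (limma adjusted p = 0.0515), without moderated variance, and with arrays scaled on hybridization controls, where the difference was −0.43 (limma adjusted p = 0.0816).

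In this list 11 of 18 genes had groups that did not overlap, beside 38.4% of all genes. Some inhibitors of the Ras pathway among them missed the threshold and are named after their values were seen. Mkp3, the phosphatase that inactivates the MAP kinase, differed by 0.88 (SE 0.26, limma adjusted p = 0.0961, or 0.0500 and just past the threshold in the blocked fit), and its other probe set gave 0.43. Nf1, a Ras GTPase-activating protein gene, differed by 1.27 (SE 0.33, limma adjusted p = 0.0708, or 0.0224 in the blocked fit), and its other probe sets gave 0.62 and 1.11. The gene aop (Yan), the ETS repressor that opposes Pointed, differed by 0.08 (SE 0.25, limma adjusted p = 0.847) and ed (Echinoid) by −0.05 (SE 0.26, limma adjusted p = 0.902).

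The kek genes encode membrane proteins with leucine-rich repeats and an immunoglobulin domain, and kek1 is the family member known to inhibit the receptor. All 6 genes were measured, and by their brightest probe sets 3 rose (kek4, kek5 and kek2) and none fell. Of all genes, 11.3% passed the test in either direction. The dimmer probe sets of kek2 and kek5 did not rise. kek4 read 4.29, 4.40 and 4.41 in wild type, below the array medians, and 6.57, 6.35 and 6.40 in the mutants. The wild-type mean lay at percentile 7.67 of all probe sets and was not shown to be above background, so the fold is a lower bound, at least 4.21-fold. The measured difference was 2.07 (SE 0.09, limma adjusted p = 0.000203), and it passed in all 14 alternative fits.

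The kek5 gene, whose product is known to modulate BMP signalling, read 8.36, 8.90 and 7.64 in wild type and 9.82, 10.06 and 9.65 in the mutants. The rise was 1.55 (SE 0.32, limma adjusted p = 0.0366), by a probe set with the suffix _s_at. The call was lost in the 3 fits without a mutant array (limma adjusted p up to 0.146) and without moderated variance (adjusted p = 0.141). The other, dimmer probe set of kek5 gave −0.08. The kek2 gene read 5.51, 5.54 and 5.05 in wild type and 6.33, 6.38 and 5.95 in the mutants, a rise of 0.85 (SE 0.18, limma adjusted p = 0.0404) that was lost in 5 of the 6 fits without 1 array, and its dimmer probe set gave −0.12. For kek3 and kek6 the differences were −0.09 and −0.10, neither past the test, and both were above 0 with arrays scaled on hybridization controls (0.29 and 0.28). In kek1, kek2 and kek5 replicate 3 was the lowest array of both groups.

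**Figure D4:**
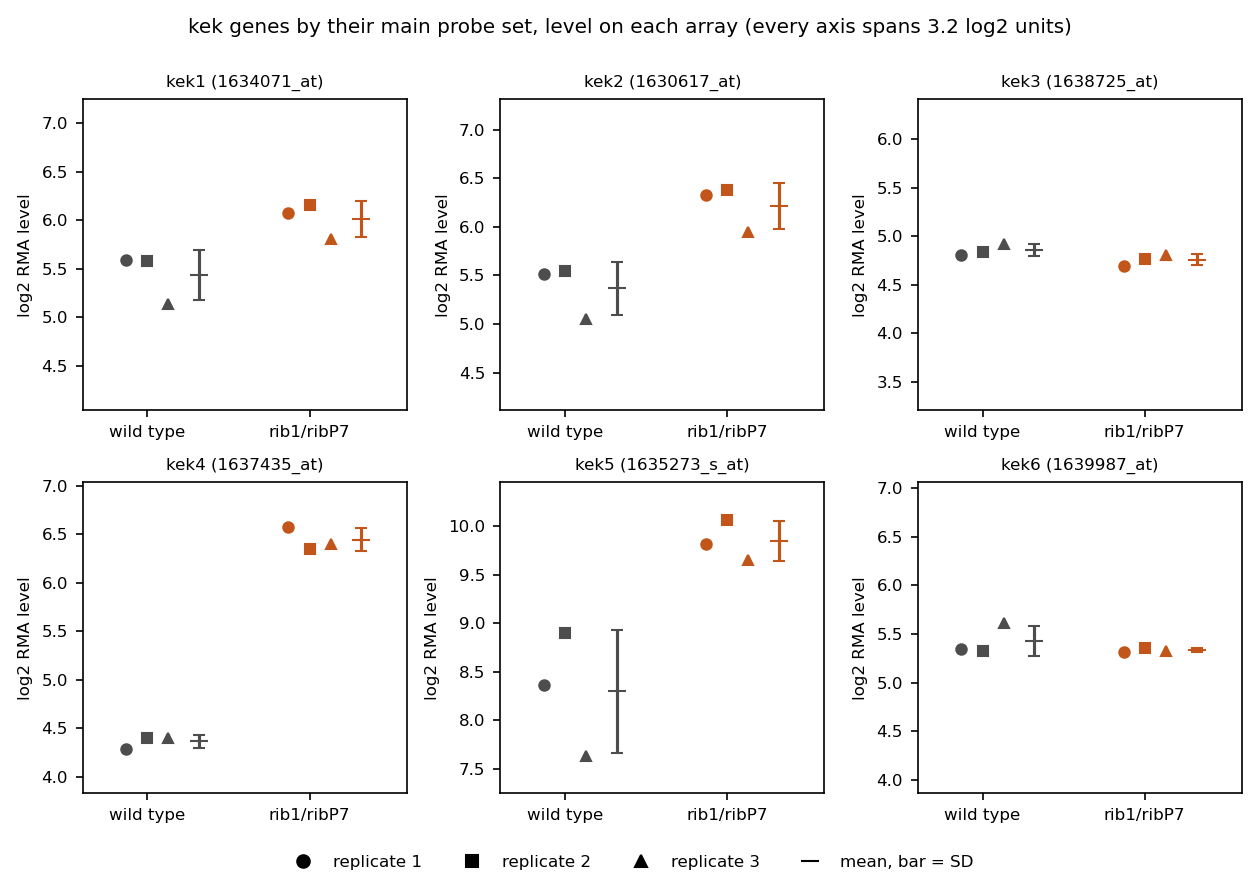
Log2 RMA level (vertical axis) of the brightest probe set of each of the 6 kek genes on each array, with circles, squares and triangles for replicates 1, 2 and 3 and the group mean with its SD (n = 3 a group). Groups do not overlap for kek1, kek2, kek4 and kek5, with kek4 near 4.4 in wild type and near 6.4 in the mutants.

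Nuclear effectors and target genes outside the members held 23 measured of 28 listed, with a median of 0.14. Of these, 1 rose, 1 fell and 21 did not pass (8.7% called, beside 11.3% of all genes). Jra, the fly Jun gene, was the rise (0.68, SE 0.10, limma adjusted p = 0.0125), with 8.87, 8.92 and 8.66 in wild type and 9.41, 9.52 and 9.57 in the mutants. The Jra call was lost without mutant replicate 2 or 3 (limma adjusted p up to 0.0696). The fall was in D (Dichaete), a Sox factor gene of the ventral neuroectoderm, by 0.46 on the log2 scale (SE 0.10, limma adjusted p = 0.0440), a call that 9 of 14 alternative fits did not keep. Other ectodermal genes of the list varied, and 3 of them are given by their role, chosen after their values were seen. The homeobox gene ind of the neuroectoderm differed by −0.49 with groups that did not overlap (unadjusted p = 0.0173, limma adjusted p = 0.107), oc (Orthodenticle) by 0.18 (limma adjusted p = 0.786) and mirr by 0.14 (limma adjusted p = 0.766), none past the adjusted test. The feedback factor edl, which binds Yan and Pointed, read 10.73 to 11.22 in wild type and 10.68 to 10.81 in the mutants, a difference of −0.28 (limma adjusted p = 0.268).

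Among 17 measured genes for other receptor tyrosine kinases of 18 listed, none rose and 1 fell (5.88% called, beside 11.3% of all genes). Their median was 0.35. The fall was in dnt (Doughnut), a Ryk-family Wnt receptor gene, by 0.58 on the log2 scale (SE 0.11, limma adjusted p = 0.0251), a call lost in 7 of 14 alternative fits. The FGF receptor genes btl and htl, whose signalling Sprouty also restrains, differed by 0.49 and 0.26 (limma adjusted p = 0.197 and 0.490).

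**Figure D5:**
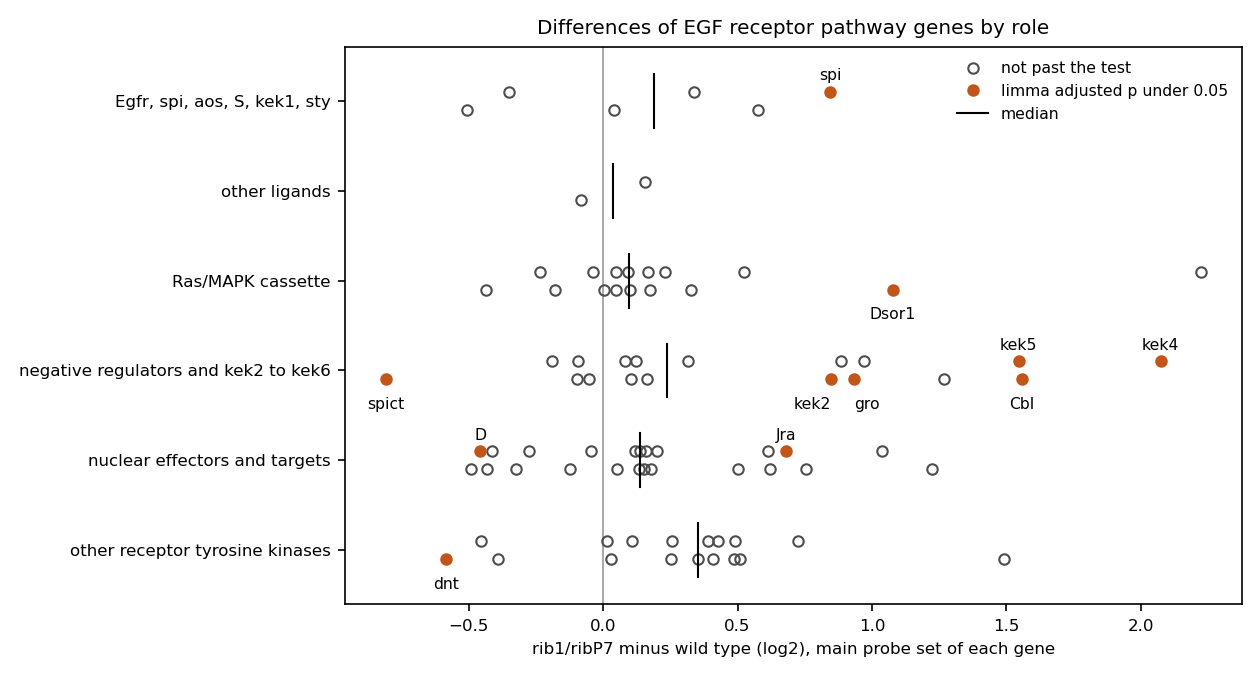
Difference between mutant and wild type (log2, horizontal axis) of each measured gene by its brightest probe set, in rows by role, with filled points for genes at a limma adjusted p under 0.05, open points for the others and a line for each row's median. The 11 filled points are spi, Dsor1, kek2, kek4, kek5, gro, Cbl, spict, Jra, D and dnt.

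Over all 5 lists outside the members, 76 genes were measured, of which 7 rose and 3 fell (13.2% called, beside 11.3% of all genes). With the replicate block 13 were called higher and 4 lower, and with array weights 15 and 7. Scaling on hybridization controls gave 18 higher and 0 lower, with D and dnt at −0.08 and −0.21. The count fell to between 3 and 7 without wild-type replicate 2 or any 1 mutant array, and was 20 without wild-type replicate 1.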

How the data were processed

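The authors deposited log2 values for each probe set, and the submitters' processing notes name RMA and Partek, without versions. RMA gives arrays like distributions, so a shift of most transcripts one way would be removed, and it compresses folds near background. Of 18952 probe sets, 183 controls were left out of the tests. The platform annotation gave 1 symbol to 13647 probe sets (11982 genes), several to 402, and 4720 are unnamed here.

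Mutant and wild type (3 arrays each, grouped by title) were tested in R 4.3.3 with limma 3.58.1 (lmFit, eBayes, two-sided, Benjamini-Hochberg over all 18769 probe sets, threshold 0.05), and SEs and 95% intervals are limma's. The number of arrays limits the precision, and no detection calls were used. The pipeline was tested on simulated data. Named genes were all members and, for each other list, up to 3 called genes in each direction, or else the 2 of smallest p, and other genes were named for their role after their values were seen. For the tissue lists the called genes are given as counts. Members and lists were chosen with earlier results of these data known. For pairing, deviations from group means correlated at r = 0.37, 0.57 and 0.39 for same-numbered arrays and at −0.33 to −0.14 for other pairs. Deviations sum to 0 within a group, so values below 0 for other pairs go with those above 0 and are no separate evidence. On the same-numbered values the numbers were taken to pair the arrays, although no label explains the numbers. The fit without the block stayed the main one. Alternatives were the replicate block, other priors, array weights, scalings, a filter on the dimmest 40%, mean probe sets, the submitters' rule (1.5-fold and p under 0.05), and each array left out.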

Additional observations from a re-analysis of the deposited data

How the results depend on the processing

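Of 99 recomputed member differences, 80 kept their direction and side of the threshold. With the replicate block kek1 passed (0.58, limma adjusted p = 0.0202), member calls were 2, pathway genes 17, tissue genes 31 and all probe sets 2745, and the block changed no other member's call. Without moderated variance spi missed (0.85, adjusted p = 0.153), and counts in the same order were 0, 2, 9 and 594. With array weights Egfr was −0.38, sty (1635819_at) −0.024, aos −0.59 and S −0.88, the latter pair past the test, and counts were 3, 22, 43 and 4371. With cyclic loess spi missed (0.85, limma adjusted p = 0.0687), leaving 0 member calls. Both without moderated variance and with cyclic loess, spi and kek1 stayed under an unadjusted p of 0.05. Scaling on hybridization controls moved the median of all probe sets from −0.07 to 0.31 and gave aos 0.030, kek1 0.96 (limma adjusted p = 0.0485), Krn 0.30, kek3 0.29 and kek6 0.28, with 2 member calls, 18 pathway genes (0 lower) and 3202 probe sets (2917 higher, 91.1%, against 62.5% in the main fit). With array weights 51.3% were higher. The submitters' rule called 16 pathway and 36 tissue genes. With 1 array left out, spi ranged from 0.73 to 1.06, aos from −0.58 to −0.21, Egfr from −0.37 to 0.30 (−0.04 and −0.03 without mutant replicates 1 and 2), sty (1635819_at) from −0.00163 to 0.56, member calls from 0 to 1 (at 0, spi and kek1 were again under an unadjusted p of 0.05), pathway genes from 3 to 20, tissue genes from 10 to 41 and all calls from 603 to 3674. Without wild-type replicate 3 the 1 member called was aos, lower. Krn ranged from −0.22 to 0.00416 and grk from −0.24 to 0.42, both changing sign without wild-type replicate 1. The cause of these changes was not tested. Signal near background limits kek1, kek2, kek3, kek4 and kek6.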
